A study of Mus musculus with 15 samples.

Results

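Colon tissue lying next to a tumour in double mutant mice was compared with colon of mice that carry the Apc mutation alone. The comparison used 6 of the 15 arrays of the series, and its members were chosen by label: 3 arrays of APC+/-/Olfm4-/- colon marked as adjacent tissue, against 3 arrays of APC mutant colon with intact Olfm4. All mice were males aged 3 months on a C57BL/6 and 129 hybrid background, and total RNA of each colon piece was hybridised to an Affymetrix Mouse430_2 array. The series also holds 3 arrays each of double mutant tumour, of Olfm4 mutant colon with intact Apc, and of wild type colon. Both sides of the comparison carry 1 mutant Apc copy. By label they differ in the loss of Olfm4 and in nearness to a tumour, and these cannot be told apart. The background is named only as a hybrid, so the strain alleles of each group, also those near Olfm4, are not known. The labels give no allele name, tumour size or distance from the tumour. The study text speaks of 3 mice per category, while the adjacent titles carry 2 animal numbers and the APC mutant titles 3. Adjacent replicates 2 and 3 share an animal, so p-values measure partly the spread within a mouse.

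Apc is a scaffold that marks beta-catenin for breakdown. When it is lost, beta-catenin enters the nucleus and switches on Wnt target genes, which keep crypt cells dividing and drive adenomas in mice with 1 mutant Apc copy. Olfm4 is a secreted glycoprotein of crypt base cells and neutrophils, and it has been described as a brake on NF-kappaB and Wnt signalling. Normal colon is lined by absorptive and goblet cells, over a layer of connective tissue, immune cells and smooth muscle that a piece of colon also contains.

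The genotypes could not be read from the arrays. The only Olfm4 probe set gave 3.17, 2.97 and 3.05 in adjacent tissue, against 3.14, 3.14 and 3.04 in APC mutant colon, on the deposited log2 scale. These values lie near the lowest of the array in both genotypes, and the difference was -0.04 (SE 0.10, limma adjusted p = 0.79). Of the 4 Apc probe sets, 2 were lower in adjacent tissue and 2 did not pass, from -1.94 (SE 0.27, limma adjusted p over all probe sets = 0.000821) to 0.36 (adjusted p = 0.0596). The brightest, which stands for Apc below, gave 10.99, 10.84 and 10.65 in adjacent tissue and 10.42, 10.78 and 10.64 in APC mutant colon, with overlapping groups (0.21, SE 0.12, adjusted p = 0.24). The positions of these probe sets on the mutated alleles were not established, so none checks a genotype.

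A measure of labelling separated the groups before any gene was considered. Bacterial RNAs added to every sample have probe sets at their 3-prime and 5-prime ends, and the mean difference between the ends was 4.10 ± 0.30 log2 units in adjacent arrays and 2.16 ± 0.203 in APC mutant arrays (SD, n = 3 each). All 3 adjacent arrays lay above all 3 APC mutant arrays, a difference of 1.94 (exact 2-sided permutation p = 0.1, the smallest that 3 against 3 allows). The same held for the housekeeping genes Gapdh, at 3.97 ± 0.404 in adjacent and 0.663 ± 0.0524 in APC mutant arrays, and Actb, at 3.40 ± 0.241 in adjacent and 1.83 ± 0.373 in APC mutant arrays. The array numbers in the labels run in blocks, 10 to 12 for adjacent tissue and 4 to 6 for APC mutant colon, so the order of the arrays and the group cannot be told apart. With this measure as a covariate, limma called 0 genes. The estimates lost precision there, since the median SE of the called genes was 0.441 in place of 0.183, and their median absolute log2 difference was 0.283 in place of 0.774. Of the genes called higher 82.1% kept their sign and of those called lower 60.7%. Within groups the measure varied most in Olfm4 mutant arrays (2.289, 3.247 and 2.396, SD 0.525). The covariate fit therefore leans on arrays outside this comparison, replicate 2 of that group above all. Single-gene estimates with the covariate are given below without SE and are not corrected values.

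**Figure D1:**
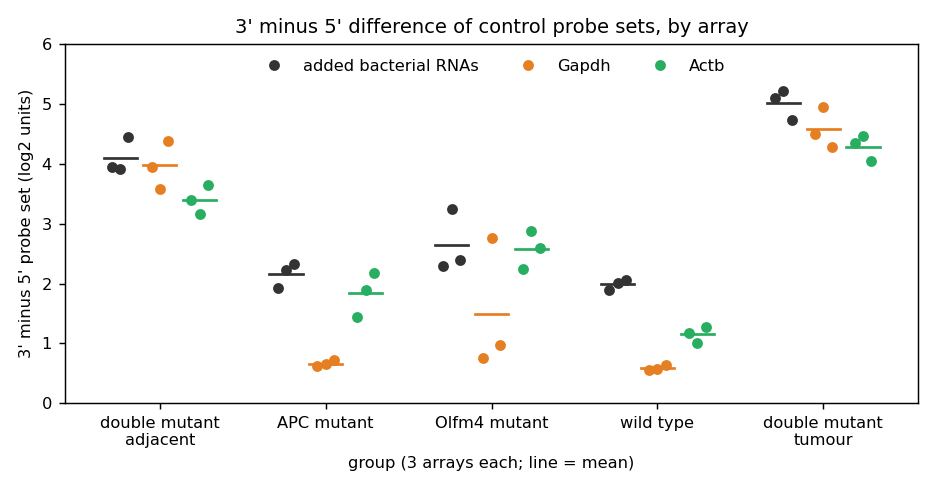
Difference between 3-prime and 5-prime probe sets (log2 units, y axis) for the added bacterial RNAs, Gapdh and Actb in each of the 15 arrays, grouped by tissue on the x axis; points are arrays and lines are means of 3. Adjacent arrays lie above APC mutant arrays for all 3 measures, and tumour arrays lie highest for the bacterial RNAs, at 5.01 ± 0.255.

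Across the genome, double mutant adjacent colon differed from APC mutant colon at 3154 of 18193 genes (17.3%) at an adjusted p of 0.05 in limma. Of these 1798 were higher (9.88% of all genes) and 1356 lower (7.45%). A fold change of at least 2 was reached by 376 of the higher genes (2.07%) and 544 of the lower ones (2.99%). The median gene stood at 0.145, so small positive differences are to be read against that shift. Without any test, the 3 adjacent arrays lay wholly above the 3 APC mutant arrays at 4820 genes (26.5%) and wholly below at 2365 (13%). Leaving out adjacent replicate 3 left 823 genes higher and 755 lower, and leaving out APC mutant replicate 1 left 882 and 746. Averaging the arrays of a mouse left 818 higher and 833 lower.

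Many genes have more than 1 probe set, and these often disagreed. Among 1130 genes called higher that have several, all probe sets pointed the same way in 541 (47.9%), and 186 had another probe set called lower. Among 651 such genes called lower, 302 (46.4%) had all probe sets on one side and 30 had one called higher. The direction of a single gene below therefore rests on its brightest probe set unless more are given.

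**Figure D2:**
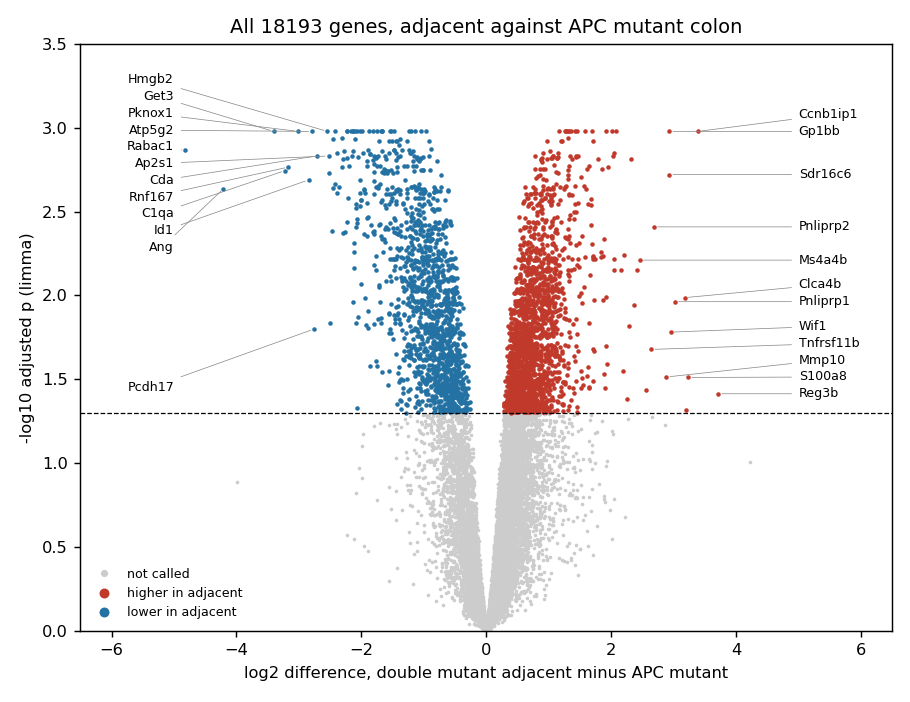
Each dot is 1 of 18193 genes, with the log2 difference (double mutant adjacent minus APC mutant) on the x axis and the negative log10 of the limma adjusted p on the y axis; the dashed line marks 0.05. Red dots are the 1798 genes higher and blue dots the 1356 genes lower in adjacent tissue, with the 12 highest and 12 lowest named genes labelled.

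The highest genes were named only among called genes whose arrays did not overlap, so a lack of overlap is given by that rule. They fell into those raised evenly in all adjacent arrays and those raised most in 1 array. Ccnb1ip1, a ubiquitin ligase needed for meiotic crossing over, gave 7.16, 7.33 and 7.74 in adjacent tissue, against 3.82, 4.10 and 4.16 in APC mutant colon. The groups lay far apart with little spread in either, a 10.4-fold difference (log2 3.38, SE 0.38, limma adjusted p = 0.00105). Sdr16c6, a short-chain dehydrogenase of the retinoid-related family, gave 8.30, 9.53 and 9.21 in adjacent tissue and 6.22, 5.12 and 6.92 in APC mutant colon. The lowest adjacent array stood above the highest APC mutant array, and the gene was 7.62-fold higher (log2 2.93, SE 0.44, adjusted p = 0.0019). Gp1bb, a subunit of the platelet receptor for von Willebrand factor, gave 8.74, 9.36 and 8.90 in adjacent tissue, against 6.06, 6.39 and 5.75 in APC mutant colon. It was also 7.62-fold higher without overlap (log2 2.93, SE 0.28, adjusted p = 0.00105), and both of its probe sets were called higher.

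Several other leading genes were highest in adjacent replicate 3. Reg3b, a secreted antibacterial lectin of gut epithelium, gave 6.11, 8.86 and 10.80 in adjacent tissue, against 4.86, 4.87 and 4.90 in APC mutant colon. The adjacent arrays were spread over a wide range above a tight APC mutant group. Wild type colon gave 4.60, 9.17 and 7.37, so wild type replicates 2 and 3 lay within the range of the adjacent arrays. The Olfm4 mutant arrays lay below that range. The 13.1-fold difference between adjacent and APC mutant colon (log2 3.71, SE 1.12, adjusted p = 0.0386) lost its call without adjacent replicate 3 (adjusted p = 0.151) and with the arrays of a mouse averaged (adjusted p = 0.132). S100a8, a calcium-binding subunit of calprotectin abundant in neutrophils, gave 8.18, 9.66 and 12.53 in adjacent tissue and 6.65, 7.33 and 6.70 in APC mutant colon. The log2 difference was 3.23 (SE 0.92, adjusted p = 0.0308), with an adjusted p of 0.105 without adjacent replicate 3 and 0.0555 with animal as a random block. Wif1, a secreted Wnt inhibitor and Wnt target, gave 6.15, 5.95 and 9.89 in adjacent tissue, against 4.60, 4.28 and 4.26 in APC mutant colon. All adjacent arrays lay above the other group, with replicate 3 far above its fellows (log2 2.95, SE 0.73, adjusted p = 0.0165, and 0.00149 without replicate 3). With animal as a random block Wif1 was not called (adjusted p = 0.0582). In the 3 tumours Wif1 stood at 11.9 to 12.0.

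Mmp10, a stromelysin that cuts matrix proteins, gave 9.25, 9.15 and 12.63 in adjacent tissue and 7.83, 7.99 and 6.55 in APC mutant colon. Replicate 3 came close to the tumour values of 13.04 to 13.28. Wild type colon gave 6.92, 9.61 and 8.27, and Olfm4 mutant colon 8.31, 8.12 and 8.46, so adjacent replicates 1 and 2 did not stand above all tumour-free arrays. The difference of 2.88 (SE 0.82, adjusted p = 0.0306) had an adjusted p of 0.0907 without adjacent replicate 3 and 0.0756 with animal as a random block. Tnfrsf11b, the decoy receptor osteoprotegerin, was also highest in replicate 3 (6.22, 6.13 and 9.36 in adjacent tissue, against 4.31, 4.21 and 5.26 in APC mutant colon). Its difference was 2.64 (SE 0.69, adjusted p = 0.021), and its second probe set stood at -0.02. The call was lost with animal as a random block (adjusted p = 0.06) and with single arrays left out (adjusted p up to 0.071). Clca4b, of the calcium-activated chloride channel regulators, gave 9.60, 12.33 and 12.72 in adjacent tissue and 7.13, 9.02 and 8.97 in APC mutant colon. Here replicates 2 and 3, the pieces of the same mouse, were both high (log2 3.18, SE 0.70, adjusted p = 0.0103, and 0.0546 with the arrays of a mouse averaged).

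Pnliprp1 and Pnliprp2 encode relatives of pancreatic lipase. Pnliprp2 gave 10.84, 10.56 and 13.03 in adjacent tissue, against 8.76, 9.08 and 8.54 in APC mutant colon, and 14.2 to 14.5 in the tumours. Adjacent tissue thus lay between the other groups (log2 2.68, SE 0.48, adjusted p = 0.0039), and both probe sets were called. Pnliprp1 was 3.02 higher (SE 0.68, adjusted p = 0.0109). In the exocrine pancreas list as a whole 2 of 13 genes were higher and 1 lower, with a median of -0.31, and the mean of the list ran from 7.05 to 7.55 over the adjacent arrays and from 6.72 to 8.13 over the APC mutant arrays.

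**Figure D3:**
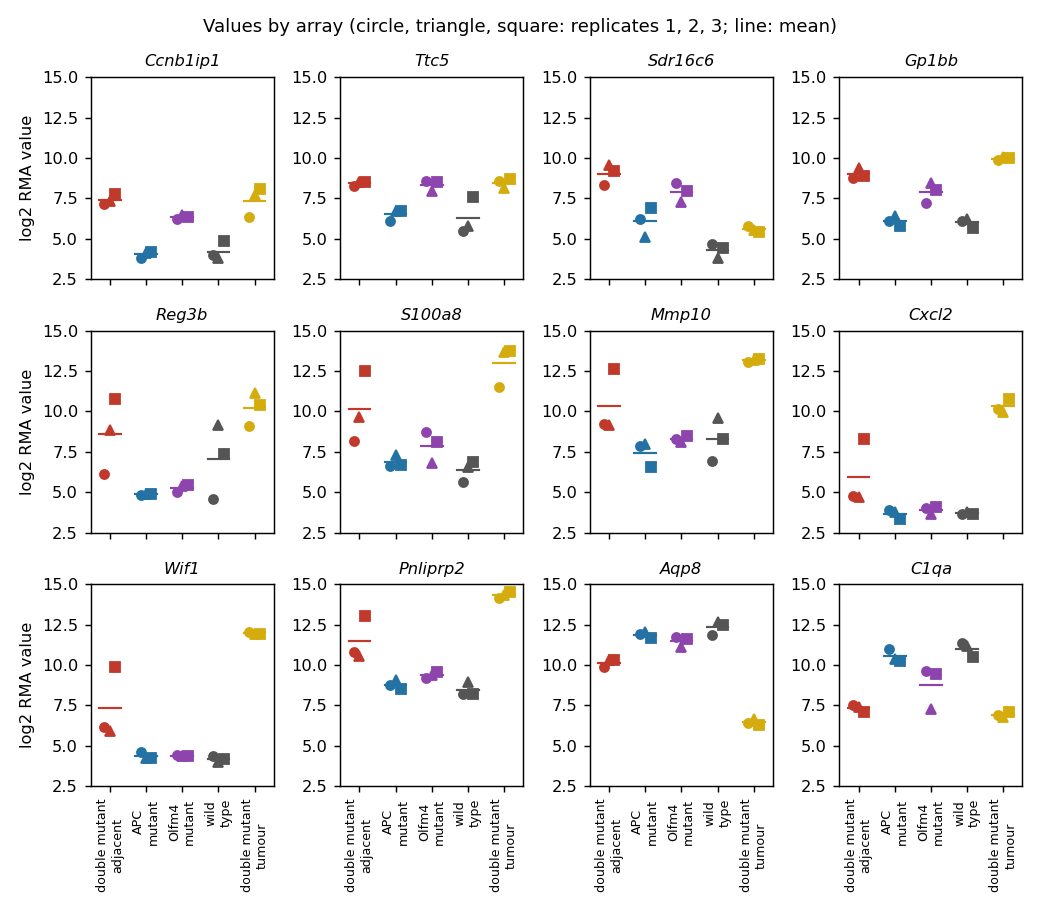
Log2 RMA values (y axis) of 12 genes in all 15 arrays, with group on the x axis; circles, triangles and squares are replicates 1, 2 and 3, and lines are means. Ccnb1ip1, Ttc5, Sdr16c6 and Gp1bb were high in all 3 adjacent arrays, while Mmp10, Cxcl2 and Wif1 were highest in adjacent replicate 3.

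Promoter sequences are shown for 4 genes whose values carry these patterns. Ccnb1ip1 and Ttc5 neighbour each other and were both higher, while Cxcl2 and Mmp10 were highest in adjacent replicate 3. The 250 bases before the annotated start are given 5-prime to 3-prime from RefSeq on GRCm38.p6. They lie at chr14:50795729-50795978 on the minus strand for Ccnb1ip1 and at chr14:50785521-50785770 on the minus strand for Ttc5. Those of Cxcl2 lie at chr5:90903649-90903898 and those of Mmp10 at chr9:7502092-7502341, both on the plus strand. Capitals mark matches to 1 of 2 motifs searched on both strands, GGGAATT, the first part of the kappaB consensus, and TGACTCA, bound by AP-1.
Ccnb1ip1: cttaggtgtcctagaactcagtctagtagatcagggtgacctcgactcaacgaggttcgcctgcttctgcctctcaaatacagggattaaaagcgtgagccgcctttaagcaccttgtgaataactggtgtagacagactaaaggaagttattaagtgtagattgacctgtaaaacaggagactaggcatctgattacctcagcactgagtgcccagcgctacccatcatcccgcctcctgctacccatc
Ttc5: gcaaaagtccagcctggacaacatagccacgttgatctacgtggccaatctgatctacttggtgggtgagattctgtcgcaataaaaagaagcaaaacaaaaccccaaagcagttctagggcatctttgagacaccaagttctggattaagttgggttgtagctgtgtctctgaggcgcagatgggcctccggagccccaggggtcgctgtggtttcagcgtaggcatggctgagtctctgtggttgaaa
Cxcl2: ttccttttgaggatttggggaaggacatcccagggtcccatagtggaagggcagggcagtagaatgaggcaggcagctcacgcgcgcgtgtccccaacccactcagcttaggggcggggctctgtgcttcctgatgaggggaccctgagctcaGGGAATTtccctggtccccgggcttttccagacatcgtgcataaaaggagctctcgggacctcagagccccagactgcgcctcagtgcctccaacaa
Mmp10: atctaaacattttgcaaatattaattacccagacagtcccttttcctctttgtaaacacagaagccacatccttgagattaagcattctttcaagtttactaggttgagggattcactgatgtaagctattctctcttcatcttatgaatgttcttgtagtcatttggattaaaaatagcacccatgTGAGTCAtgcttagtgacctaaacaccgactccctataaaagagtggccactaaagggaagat
Cxcl2 held GGGAATT on its own strand, 97 bases before the start, as did 1153 of 32851 RefSeq promoter windows of 300 bases on either strand (3.51%). Mmp10 held TGACTCA on the opposite strand, 63 bases before the start, as did 1709 windows (5.2%). Neither motif occurs in the windows of Ccnb1ip1 and Ttc5. A match of letters is a description and was not tested as a binding site.

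The lowest genes were also named only among called genes whose arrays did not overlap, so their separation is given by that rule. Their spread differed, with an SD over the APC mutant arrays of 0.15 for Id1 and 1.04 for Pcdh17. Rabac1, a membrane protein of the Golgi that binds Rab GTPases, gave 6.54, 6.76 and 5.88 in adjacent tissue, against 12.08, 10.88 and 10.67 in APC mutant colon. The groups were widely separated, a 28.2-fold difference (log2 -4.82, SE 0.64, limma adjusted p = 0.00136). With the bacterial RNA measure as a covariate the estimate was 0.15. Ang, the ribonuclease angiogenin, gave 6.96, 7.13 and 7.26 in adjacent tissue and 11.82, 11.04 and 11.12 in APC mutant colon. Its 3 probe sets all fell, by 3.15 to 4.50 (kept probe set -4.21, SE 0.67, adjusted p = 0.00231), and its estimate was -7.23 with the covariate, where it was not called. Pcdh17, a protocadherin of the nervous system, fell by 2.76 (SE 0.67, adjusted p = 0.0159) with both probe sets called, and stood at 0.10 with the covariate.

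Get3, the ATPase that inserts tail-anchored proteins into the endoplasmic reticulum, fell by 3.40 (SE 0.39). Rnf167, a ubiquitin ligase of lysosomes, fell by 3.17 (SE 0.47), and Pknox1, a homeodomain partner of Hox proteins, fell by 3.01 (SE 0.37) with all 3 probe sets called. Id1, an inhibitor of differentiation that responds to BMP signals, fell by 2.85 (SE 0.44) and stood at 0.22 with the covariate. The ATP synthase subunit Atp5g2 fell by 2.79 (SE 0.35) and the clathrin adaptor subunit Ap2s1 by 2.53 (SE 0.35), at estimates of -0.27 and 0.02 with the covariate. Hmgb2, a chromatin protein of dividing cells, fell by 2.54 (SE 0.27) on its brightest probe set, while another of its 3 stood at 0.30 without passing. Cda, cytidine deaminase, fell by 2.72 (SE 0.38). Limma adjusted p-values of these 8 genes were 0.00205 or lower.

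Olfm4 loss could also be compared in mice with intact Apc, using 6 other arrays. The animal number given for the third Olfm4 mutant array looks like the last digits of the other two run together, and the labels do not say whether that array is a separate mouse or both mice pooled. If it is not, the 3 arrays of this group are not independent and the p-values and SDs of this comparison are too small. In Olfm4 mutant against wild type colon 986 genes were higher (5.42%) and 454 lower (2.5%), 1440 in all (7.92%). Higher in both comparisons were 478 genes (2.63% of all genes), which is 26.6% of the genes higher in adjacent tissue and 48.5% of those higher in Olfm4 mutant colon. Lower in both were 322 genes (1.77%), which is 23.7% of those lower in adjacent tissue and 70.9% of those lower in Olfm4 mutant colon. Called in opposite directions were 3 genes, Ms4a4b, Hmga2 and Ube2d-ps. The comparisons share no array, but the bacterial RNA measure was on the same side in both, at 2.64 ± 0.525 in Olfm4 mutant and 1.99 ± 0.0831 in wild type arrays (SD, n = 3 each). Its part in the overlap was not tested beyond the covariate fit, in which 0 genes were shared in either direction. When each comparison was fitted on its own groups alone, 12 genes were shared higher and 3 lower. Without Olfm4 mutant replicate 3 only 200 genes were higher and 103 lower in Olfm4 mutant colon, and 127 and 89 were shared.

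**Figure D4:**
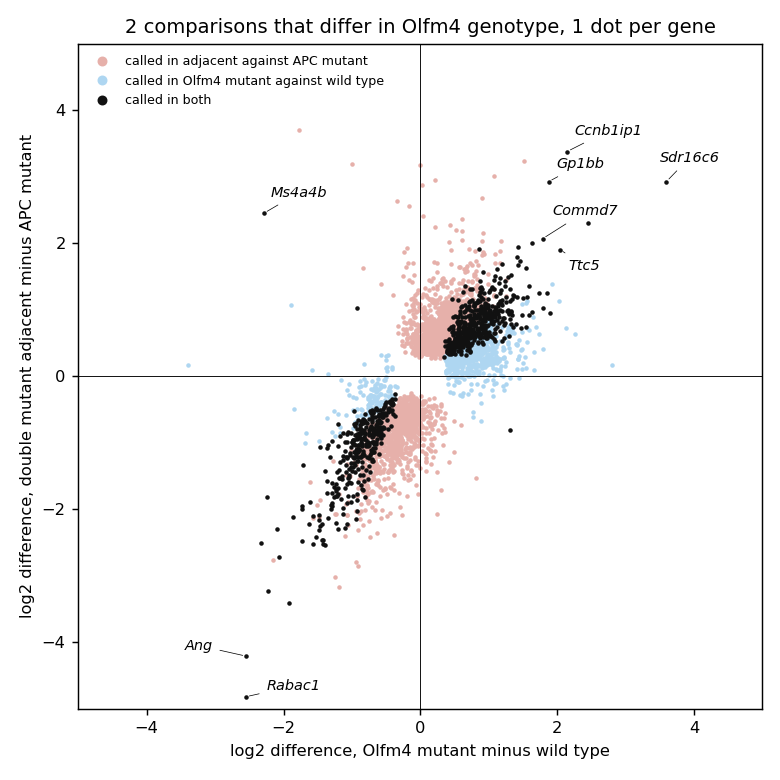
Each dot is a gene called in at least 1 comparison, with the log2 difference of Olfm4 mutant minus wild type colon on the x axis and of double mutant adjacent minus APC mutant colon on the y axis. Black dots, called in both, lie mostly in the upper right (478 genes) and lower left (322 genes) parts of the plot, and Ms4a4b lies in the upper left.

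Among genes higher in both, Sdr16c6 led. Its Olfm4 mutant arrays gave 8.46, 7.24 and 7.98, against 4.64, 3.81 and 4.43 in wild type colon, again with no overlap (log2 3.60, SE 0.44, limma adjusted p = 0.00227). Sdr16c5, its close relative, stood at 0.49 in adjacent tissue (SE 0.19, adjusted p = 0.0907) and did not pass. Ccnb1ip1 gave 6.23, 6.48 and 6.32 in Olfm4 mutant and 3.96, 3.79 and 4.85 in wild type colon (log2 2.15, SE 0.38, adjusted p = 0.01).

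Ttc5, a cofactor of stress-responsive transcription, gave 8.23, 8.52 and 8.49 in adjacent tissue, against 6.06, 6.74 and 6.72 in APC mutant colon. It was 1.91 higher there (SE 0.42, adjusted p = 0.0103) and 2.04 higher in Olfm4 mutant than in wild type colon (adjusted p = 0.0176). Wild type replicate 3, at 7.58, stood above the 5.50 and 5.78 of its group. The other probe set of Ttc5 stood at 0.19 in adjacent tissue and did not pass. Gp1bb rose by 1.87 in Olfm4 mutant colon (adjusted p = 0.00526) and Commd7, a COMM domain protein that binds NF-kappaB complexes, by 1.79 (adjusted p = 0.00451), beside 2.07 in adjacent tissue (SE 0.25). A second probe set of Commd7 stood at -0.33 in adjacent tissue without passing.

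Further genes higher in both were the phosphatase Ptpn13, at 1.95 in adjacent tissue and 1.43 in Olfm4 mutant colon, and the zinc finger gene Zfp385b, at 1.79 in adjacent tissue and 1.42 in Olfm4 mutant colon. Klhl17, an actin-binding Kelch protein, stood at 1.36 in adjacent tissue and 1.59 in Olfm4 mutant colon, with both probe sets called in adjacent tissue. Tmem174 and Morn1 rose by 1.63 and 1.68 in adjacent tissue and by 1.54 and 1.43 in Olfm4 mutant colon. All 5 passed the limma test in both comparisons (adjusted p from 0.00153 to 0.018). In adjacent tissue the second probe set of Ptpn13 stood at -0.05, and of the 4 Morn1 probe sets 1 was called.

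The genes lower in both included the strongest falls in adjacent tissue. Rabac1 gave 10.02, 7.21 and 9.94 in Olfm4 mutant, against 12.24, 11.57 and 11.02 in wild type colon (log2 -2.55, limma adjusted p = 0.033). Olfm4 mutant replicate 2 was the lowest of its group here, as it was for C1qa (7.27 beside 9.62 and 9.45) and Get3 (8.40 beside 9.96 and 9.86). The same array had a Gapdh 3-prime minus 5-prime difference of 2.76, against 0.753 and 0.971 in replicates 1 and 3 of its group. This is 1 array, and a link between that difference and the values of these genes was not tested. Ang did not follow this order, with 6.97, 10.50 and 9.54 in Olfm4 mutant and 11.73, 12.08 and 10.84 in wild type colon (log2 -2.55, adjusted p = 0.0376). The cell surface gene Ly6g6c, the hormone gene Sct (secretin) and the sulfurtransferase gene Mpst fell by 2.51, 2.30 and 2.11 in adjacent tissue and by 2.34, 2.09 and 1.86 in Olfm4 mutant colon. The call of Ly6g6c in adjacent tissue did not hold with the arrays of a mouse averaged (adjusted p = 0.0535).

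The interaction, the difference between the 2 comparisons, was also fitted. Only the first comparison differs in nearness to a tumour as well, and the bacterial RNA measure differed in both. The interaction therefore does not isolate an effect of Olfm4 loss that depends on Apc. Limma called 0 of 18193 genes (0%), and 1901 genes (10.4%) had an unadjusted p under 0.05. Ms4a4b, a membrane protein of T cells, had a large interaction of 4.74 (SE 0.69, adjusted p = 0.107). It gave 6.79, 7.25 and 6.81 in adjacent tissue, against 4.65, 4.49 and 4.35 in APC mutant colon. The Olfm4 mutant arrays gave 4.41, 6.56 and 5.49, against 6.82, 8.57 and 7.93 in wild type colon. It was thus 2.46 higher in adjacent than in APC mutant colon (adjusted p = 0.00615) and 2.29 lower in Olfm4 mutant than in wild type colon (adjusted p = 0.0191). Its second probe set stood at 0.02 in adjacent tissue. Hmga2, a chromatin protein of embryonic and tumour cells, gave 8.50, 8.89 and 8.50 in adjacent tissue, against 9.79, 9.33 and 9.17 in APC mutant colon. It fell by 0.80 there (adjusted p = 0.0159) and rose by 1.31 in Olfm4 mutant colon (adjusted p = 0.00526), and its interaction of -2.10 (SE 0.28) had the lowest adjusted p of all genes, 0.0778. The ubiquitin enzyme pseudogene Ube2d-ps, which can share signal with its parent genes, stood at 1.03 in adjacent tissue and -0.92 in Olfm4 mutant colon.

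Olfm4 lies on chromosome 14, where 64 of 648 genes were higher (9.88%) and 54 lower (8.33%) in adjacent tissue. These shares lie within those of the 19 other chromosomes with at least 20 genes called higher (7.63% to 12.6% higher, 4.37% to 10.1% lower). Of its 64 higher genes 30 were also higher in Olfm4 mutant than in wild type colon (46.9%), against 12.8% to 30.4% on the other chromosomes. Of its 54 lower genes 10 were also lower there (18.5%), within the 15.8% to 31.3% of the other chromosomes. Of the 100 measured genes nearest to Olfm4 by order 12 were higher and 7 lower, and 7 of the 12 were shared. Ang, Ccnb1ip1 and Ttc5 stand 344th, 353rd and 354th from Olfm4 in that order, so they lie near each other but not next to Olfm4. These shares were not tested, and neither was a difference of strain alleles along chromosome 14.

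Genes were next grouped into 42 lists of pathways and cell types, which hold 704 distinct measured genes. List counts are to be read against 9.88% higher and 7.45% lower among all genes. Beside each list stand its lowest and highest counts over the 6 fits that each left out 1 of the compared arrays, in which fewer genes were called overall. Of the 109 genes named here that limma called, 54 lost their call in at least 1 of these fits, 49 of them without APC mutant replicate 1 and 34 without adjacent replicate 3. Among higher genes these were Reg3b, S100a8, Mmp10, Tnfrsf11b, Lef1, Bmi1, Smoc2, Dtx1, Neurod1, Ltf, Cxcl2, Nfkbie, Rel, Icam1, Nlrp10, C1qb, Csf1r, Adgre1, Mpeg1, Pfkfb3, Hk1, Duoxa2, Cd22, Klf2, Zfp36, Dnajb1, Cdh5, Cdc20, Nfil3, Plat and Ube2d-ps. Among lower genes they were Ly6g6c, Pcdh17, Axin2, Sox9, Nrarp, Slc9a3, Insl5, Relb, Lyz2, Tagln, Myl9, Slpi, Fabp2, Bst2, Ctsd, Ctsz, Dhrs3, Pecam1, Emcn, Plk1, Nr1d1, Pkm and Hmga2. With animal as a random block 25 of the 109 were not called, Wif1 and 24 of the genes just named. In a bulk sample, fewer cells of a type and less RNA per cell cannot be told apart.

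**Figure D5:**
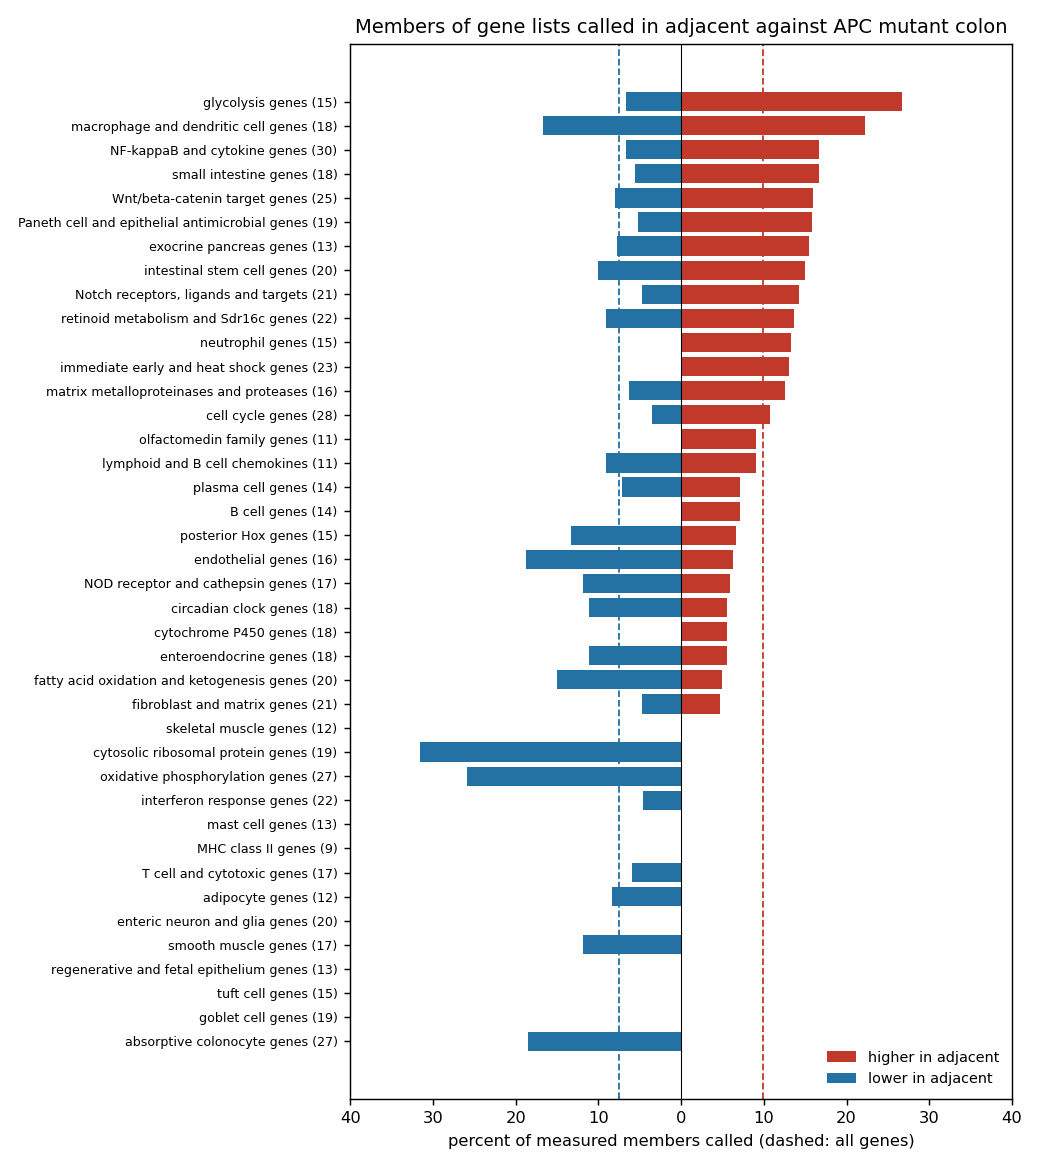
Percent of the measured members of each gene list called higher (red, to the right) or lower (blue, to the left) in double mutant adjacent than in APC mutant colon by limma, for lists with at least 9 measured members (number in brackets); dashed lines mark 9.88% higher and 7.45% lower over all genes. Ribosomal protein, oxidative phosphorylation and absorptive colonocyte lists hold members called lower and none called higher. The largest shares called higher are those of the glycolysis list (26.7%, with 6.67% lower) and the macrophage list (22.2%, with 16.7% lower). The NF-kappaB and small intestine lists follow, both at 16.7%.

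Wnt/beta-catenin targets are the genes that Apc holds in check. Of 25 measured 4 were higher and 2 lower, with a median of 0.46 beside 0.145 for all genes. Besides Wif1 they were Ephb3, a receptor that sorts crypt cells, with 8.47, 8.41 and 8.16 in adjacent tissue, against 7.32, 7.44 and 7.37 in APC mutant colon (0.97, SE 0.21, limma adjusted p = 0.00864). The ligand gene Wnt6 rose by 1.17 (SE 0.24) and the nuclear partner of beta-catenin Lef1 by 1.09 (SE 0.31). Lower were Axin2, the feedback inhibitor of the pathway, at -0.56 (SE 0.17, adjusted p = 0.0446), and the crypt transcription factor Sox9 at -1.07 (SE 0.25, adjusted p = 0.012). With the arrays of a mouse averaged 7 Wnt targets were higher and 0 lower, and with probe sets averaged 4 and 0. Leaving out single arrays gave 3 to 7 higher and 1 lower. With the bacterial RNA covariate the median of the list was 0.06, beside 0.054 for all genes. Axin2 gave 10.35, 10.50 and 10.91 in adjacent tissue, 11.15, 11.02 and 11.26 in APC mutant colon, and 12.4 to 12.8 in tumours, and its other probe set stood at 0.07.

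Adjacent replicate 3 stood apart in this list. The mean of the Wnt list was 7.88, 7.66 and 8.59 in adjacent tissue, against 7.51, 7.41 and 7.54 in APC mutant colon, and 10.2 to 10.4 in the tumours. The mean of the antimicrobial list was likewise 8.56, 8.42 and 10.03 in adjacent tissue and 8.73, 8.29 and 8.36 in APC mutant colon, with 10.03 to 10.54 in tumours. The neutrophil list gave 5.77, 5.89 and 7.03 in adjacent tissue and 5.36, 5.62 and 5.46 in APC mutant colon. Replicate 3 was the nearest of the adjacent arrays to the tumours in these lists. It was also the nearest to them in the 3-prime minus 5-prime difference of the bacterial RNAs. That difference was 3.942, 3.914 and 4.448 in adjacent tissue and 4.727 to 5.217 in tumours. A link between this difference and the list means was not tested. Replicate 2 of the same mouse lay above the APC mutant arrays in the Wnt and neutrophil lists, by less, and within them in the antimicrobial list.

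Intestinal stem cell genes share members with the Wnt list, and 3 of 20 were higher and 2 lower (1 to 4 and 1 to 2 with single arrays left out, 1 and 1 without adjacent replicate 3). Smoc2, a crypt base matrix protein, rose by 1.05 (SE 0.25, adjusted p = 0.0148) with both probe sets called, Tert, the catalytic part of telomerase, by 0.64 (SE 0.13) and the Polycomb gene Bmi1 by 0.55 (SE 0.14). Smoc2 and Bmi1 lost their calls without adjacent replicate 3 (adjusted p = 0.0661 and 0.0887). The R-spondin receptor gene Lgr5, a marker of crypt base stem cells, gave 5.11, 5.72 and 6.05 in adjacent tissue and 5.90, 5.35 and 5.93 in APC mutant colon. The groups overlapped (-0.10, SE 0.23, adjusted p = 0.784).

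The Notch pathway, which sets absorptive against secretory fate, had 3 of 21 genes higher and 1 lower (2 to 3 and 0 to 1 with single arrays left out). Notch4, a receptor best known in endothelium, gave 9.71, 9.66 and 9.81 in adjacent tissue, against 8.18, 8.59 and 8.01 in APC mutant colon. It was 2.78-fold higher without overlap (log2 1.47, SE 0.21, adjusted p = 0.00147), and it stood at 0.18 in Olfm4 mutant against wild type colon (adjusted p = 0.654). The glycosyltransferase Mfng rose by 0.78 (SE 0.19) and the ubiquitin ligase Dtx1 by 0.74 (SE 0.20). Nrarp, a Notch target, fell by 1.12 (SE 0.29, adjusted p = 0.0212).

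Of 28 cell cycle genes 3 were higher and 1 lower. None was higher without adjacent replicate 3, without APC mutant replicate 1 or with the arrays of a mouse averaged. Cdc20, an activator of the anaphase complex, rose by 1.02 (SE 0.30) and the mitotic kinase Plk1 fell by 1.01 (SE 0.26). The other Cdc20 probe sets stood at 0.96 and -0.17. The proliferation marker Mki67 stood at -0.35 (SE 0.25, adjusted p = 0.343).

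Absorptive colonocyte genes moved one way where they moved, with 5 of 27 lower (18.5%), none higher, and a median of -0.29 (4 to 6 lower with single arrays left out). With the mean of all probe sets 10 were lower and none higher. Aqp8, the water channel of surface colonocytes, gave 9.87, 10.30 and 10.32 in adjacent tissue, against 11.92, 12.04 and 11.66 in APC mutant colon. Every adjacent array lay below, a 3.28-fold difference (log2 -1.71, SE 0.22, limma adjusted p = 0.0012). Tumours lay lower still, at 6.27 to 6.66.

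The sodium and proton exchangers followed. Slc9a2 gave 10.79, 10.89 and 10.69 in adjacent tissue and 12.20, 11.77 and 11.89 in APC mutant colon (-1.16, SE 0.16, adjusted p = 0.00147). Slc9a3 gave 11.24, 9.55 and 12.12 in adjacent tissue, against 12.89, 12.98 and 12.35 in APC mutant colon, so adjacent replicate 2 was far the lowest (-1.77, SE 0.48, adjusted p = 0.0246). Its call ended when 1 array was left out (adjusted p up to 0.0775), and its other probe set stood at -0.05. The hormones guanylin and uroguanylin, which drive fluid secretion, fell together. Guca2a fell by 1.29 (SE 0.27, adjusted p = 0.00815) and Guca2b by 1.36 (SE 0.29, adjusted p = 0.00825), and all 5 of these genes kept negative estimates with the covariate. Car1, the abundant colonocyte carbonic anhydrase, stood at -0.42 (SE 0.18, adjusted p = 0.121).

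Goblet and tuft cell genes gave no call, 0 of 19 and 0 of 15 in limma at an adjusted p of 0.05, and at most 1 each with single arrays left out. Muc2, the mucin that forms the colonic mucus layer, gave 12.61, 12.13 and 12.38 in adjacent tissue, against 13.36, 13.11 and 13.36 in APC mutant colon. The arrays did not overlap, yet the difference of -0.90 (SE 0.45, adjusted p = 0.185) did not pass. Of 18 enteroendocrine genes 1 was higher and 2 lower (0 to 1 and 1 to 3 with single arrays left out). Besides Sct the hormone gene Insl5 fell by 0.96 (SE 0.28, adjusted p = 0.0327), while the endocrine transcription factor Neurod1 rose by 0.90 (SE 0.21). A second probe set of Neurod1 stood at -0.355 without passing. Markers of colon position included Cdx1, a homeobox gene of intestinal identity, at -1.16 (SE 0.17), and Hoxb9 at -1.19 (SE 0.26), the 2 of 15 genes of the posterior Hox list that were lower, beside 1 higher (2 to 3 and 0 to 1 with single arrays left out).

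In the small intestine list 3 of 18 genes were higher and 1 lower. Only 1 was higher without adjacent replicate 2 or 3, without any 1 of the APC mutant arrays, or with the arrays of a mouse averaged. The cobalamin receptor Cubn rose by 1.84 (SE 0.35, adjusted p = 0.00548). Fabp2, an enterocyte fatty acid carrier, fell by 1.76 (SE 0.48, adjusted p = 0.0264). Leaving out single arrays took the adjusted p up to 0.0952.

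Epithelial antimicrobial genes had 3 of 19 higher and 1 lower, against 0 to 4 and 0 with single arrays left out. With Reg3b and S100a8 the third was Duoxa2, the maturation factor of the hydrogen peroxide producing oxidase, at 7.90, 9.74 and 9.92 in adjacent tissue and 6.84, 7.63 and 7.30 in APC mutant colon (1.93, SE 0.53, adjusted p = 0.0256). None of the 3 was called without adjacent replicate 3 (adjusted p for Duoxa2 = 0.105). Slpi, a protease inhibitor, fell by 1.29 (SE 0.42, adjusted p = 0.04996). Of 15 neutrophil genes 2 were higher and none lower (0 to 3 higher with single arrays left out), S100a8 and Ltf, the iron binder lactoferrin. Ltf gave 5.04, 6.21 and 7.51 in adjacent tissue, against 4.55, 4.57 and 4.52 in APC mutant colon (1.70, SE 0.44, adjusted p = 0.021), and it had an adjusted p of 0.0547 without adjacent replicate 3.

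NF-kappaB, a transcription factor family of inflammation, is a pathway Olfm4 has been tied to. Of 30 genes in this list 5 were higher (16.7%) and 2 lower, with a median of 0.46. Without adjacent replicate 3 the counts were 3 and 1, and over all 6 arrays left out in turn 2 to 8 and 1 to 2. Cxcl2, a neutrophil chemokine whose promoter is shown above, gave 4.78, 4.69 and 8.30 in adjacent tissue and 3.88, 3.77 and 3.37 in APC mutant colon. The groups did not overlap and replicate 3 lay far above its fellows (2.25, SE 0.69, adjusted p = 0.0414). The call held without replicate 3 (adjusted p = 0.018) but not with other single arrays left out (up to 0.0978) or with animal as a random block (adjusted p = 0.117). Cxcl2 stood at 9.99 to 10.8 in the tumours. The subunits themselves were split. Rel rose by 0.99 (SE 0.29) and Nfkb2 by 0.99 (SE 0.20), while Rela fell by 1.03 (SE 0.18, adjusted p = 0.00382) and Relb by 0.78 (SE 0.25, adjusted p = 0.0463). A second probe set of Nfkb2 stood at -0.39, and Rela and Relb stood at 0.11 and 0.38 with the covariate.

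The inhibitor Nfkbie gave 9.22, 9.12 and 9.27 in adjacent tissue, against 8.0, 8.04 and 8.40 in APC mutant colon (1.06, SE 0.25, adjusted p = 0.0126). Icam1, an adhesion molecule induced by NF-kappaB, rose evenly by 0.74 (SE 0.18, adjusted p = 0.0158). The cytokine Il1b gave 8.60, 8.56 and 10.54 in adjacent tissue and 6.79, 8.0 and 7.24 in APC mutant colon. Its difference of 1.89 (SE 0.88, adjusted p = 0.156) did not pass. Wild type colon gave 6.06, 9.98 and 8.53, and Olfm4 mutant colon 9.32, 7.07 and 8.81. In the NOD receptor and cathepsin list 1 of 17 genes was higher and 2 lower (0 to 1 and 0 to 2 with single arrays left out). Nlrp10 rose by 1.10 (SE 0.27), while the lysosomal proteases Ctsd and Ctsz fell by 0.93 (SE 0.21) and 0.47 (SE 0.11), Ctsz on all 3 probe sets. Bst2 was the 1 of 22 interferon response genes that was lower, by 1.34 (SE 0.36), with none higher, and its call held in 1 of the 6 fits with an array left out, that without APC mutant replicate 3.

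Macrophage genes moved in both directions, 4 of 18 higher and 3 lower. None was higher without APC mutant replicate 1 or 2 or without adjacent replicate 1, while 2 to 3 were lower with single arrays left out. C1qa, a chain of the first complement component, gave 7.52, 7.38 and 7.07 in adjacent tissue, against 11, 10.40 and 10.24 in APC mutant colon. This 9.34-fold fall (log2 -3.22, SE 0.48, adjusted p = 0.0018) had no counterpart of that size in C1qb, the partner chain made by the same cells. C1qb gave 13.73, 13.55 and 13.47 in adjacent tissue and 13.10, 13.29 and 13.29 in APC mutant colon, a rise of 0.36 (SE 0.10, adjusted p = 0.0291). A second probe set of C1qb rose by 0.34, and another stood at -0.255 without passing. With the covariate C1qa stood at 0.46, so its fall was not kept in that fit. The surface markers Csf1r and Adgre1 rose by 0.65 (SE 0.17) and 0.61 (SE 0.15), though 1 of 3 Csf1r probe sets was called lower, and the perforin relative Mpeg1 rose by 0.46 (SE 0.13). Ms4a7 and lysozyme (Lyz2) fell by 0.91 (SE 0.13) and 0.75 (SE 0.19).

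Other cell types that a colon piece can hold differed in their share of calls. Smooth muscle had 2 of 17 genes lower (11.8%, beside 7.45% of all genes) and none higher. These were the actin-binding Tagln at -1.40 (SE 0.41) and Myl9, a light chain of myosin, also at -1.40 (SE 0.33). The myosin heavy chain Myh11 stood at -0.54 (SE 0.55, adjusted p = 0.517). The mean of that list was 11.82, 11.54 and 11.26 in adjacent tissue and 11.85, 11.73 and 11.75 in APC mutant colon. Enteric neuron and glia, mast cell, MHC class II and skeletal muscle lists had 0 of 20, 0 of 13, 0 of 9 and 0 of 12 genes called by limma, and at most 1 with single arrays left out. Of 14 B cell genes 1 was higher (0 to 2 with single arrays left out), the inhibitory receptor Cd22 at 1.43 (SE 0.37). A second probe set of Cd22 stood at -0.32 without passing. Both smooth muscle calls ended without adjacent replicate 3, the lowest of its group in this list, and without APC mutant replicate 1.

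Of 16 endothelial markers 3 were lower (18.8%) and 1 higher (6.25%). Only 1 was lower and none higher without adjacent replicate 3, without APC mutant replicate 1 or with the arrays of a mouse averaged. The adhesion molecule Pecam1 fell by 1.0 (SE 0.26), the VEGF receptor Kdr by 0.88 (SE 0.19) and the sialomucin Emcn by 0.88 (SE 0.26), while the cadherin Cdh5 rose by 0.65 (SE 0.17). Pecam1 stood at 0.43 with the covariate. Of 16 proteases 2 were higher, Mmp10 and the plasminogen activator Plat (1.23, SE 0.40), and Mmp14 was lower by 0.88 (SE 0.20) on all 3 probe sets. No protease was higher without adjacent replicate 3 or without any 1 of the APC mutant arrays. Ccl25, a chemokine of gut-homing lymphocytes, fell by 1.09 (SE 0.23).

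Housekeeping and metabolic lists held the largest shares of lower genes. Of 19 cytosolic ribosomal protein genes 6 were lower (31.6%) and none higher. Rps19 gave 12.34, 12.69 and 12.38 in adjacent tissue, against 13.51, 13.48 and 13.47 in APC mutant colon (-1.02, SE 0.16, limma adjusted p = 0.00244), and it stood at 0.05 with the covariate. Rps14 fell by 1.62 (SE 0.22) and Rps27 by 1.19 (SE 0.23), while the other 3 fell by 0.30 to 0.38. Of 27 oxidative phosphorylation genes 7 were lower (25.9%) and none higher, with a median of -0.06. Uqcrc1, of respiratory complex III, gave 10.96, 11.28 and 11.05 in adjacent tissue and 12.47, 11.83 and 11.84 in APC mutant colon (-0.95, SE 0.18, adjusted p = 0.00464). Ndufa4 fell by 0.74 (SE 0.14). Both lists had members called lower with the mean of all probe sets too, 7 and 8 in the same order, and 0 called with the covariate. With single arrays left out the counts were 3 to 5 and 3 to 6, again with none higher.

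Fatty acid oxidation and ketogenesis had 3 of 20 genes lower and 1 higher (2 to 3 and 0 to 2 with single arrays left out). Hadha, the alpha subunit of the mitochondrial trifunctional protein, gave 9.25, 9.99 and 9.60 in adjacent tissue and 11.19, 10.93 and 10.65 in APC mutant colon (-1.31, SE 0.19, adjusted p = 0.0017), and the ketone body enzyme Bdh1 fell by 0.99 (SE 0.19). Glycolysis had 4 of 15 genes higher (26.7%) and 1 lower, against 2 higher and 3 lower with the mean of all probe sets and 2 to 4 higher and 0 to 1 lower with single arrays left out. Slc16a3, the lactate exporter, gave 8.88, 9.13 and 9.26 in adjacent tissue, against 7.98, 6.99 and 7.36 in APC mutant colon, and 10.9 to 11.1 in tumours. It was 3.13-fold higher without overlap (log2 1.65, SE 0.24, adjusted p = 0.00168). Pfkfb3, which makes the activator of phosphofructokinase, rose by 0.97 (SE 0.27) and lost its call without adjacent replicate 3 (adjusted p = 0.113). Hk1 and Pfkp rose by 0.50 (SE 0.15) and 0.72 (SE 0.12) on their brightest probe sets, but each had another probe set called lower, at -2.03 and -2.19. The pyruvate kinase Pkm fell by 0.34 (SE 0.10).

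Retinoid metabolism, the family of Sdr16c6, had 3 of 22 genes higher and 2 lower, against 1 and 1 without adjacent replicate 3 and 1 to 3 and 0 to 4 over all 6 arrays left out in turn. Dhrs3, which turns retinaldehyde back into retinol, gave 9.46, 9.46 and 9.77 in adjacent tissue and 11.75, 10.47 and 11.16 in APC mutant colon (-1.56, SE 0.39, adjusted p = 0.0167). Immediate early and heat shock genes had 3 of 23 higher and none lower (none higher without APC mutant replicate 1): the transcription factor Klf2 by 1.05 (SE 0.25), the RNA decay factor Zfp36 by 0.75 (SE 0.22) and the chaperone Dnajb1 by 0.80 (SE 0.26). Among circadian clock genes 1 of 18 was higher and 2 lower, with the repressors Nfil3 at 1.12 (SE 0.36) and Nr1d1 at -1.08 (SE 0.34). These 2 calls had limma adjusted p-values of 0.0481 and 0.0443 and neither held without adjacent replicate 3.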

How the data were processed

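Gene expression was measured on 15 Affymetrix Mouse430_2 arrays, 3 in each of 5 groups. The values the authors deposited are on the log2 scale, and the submitters' processing notes name RMA and Partek 6.5. Since RMA quantile normalizes arrays together, a shift shared by most genes would mostly disappear. The deposited table holds no detection calls, and the number of arrays limits the precision. The genome build behind the probe annotation is not given in the sources used here.

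The 45101 probe sets include 64 controls. GEO's platform annotation names 34945 with 1 gene symbol, and the 932 with several and 9160 with none were left out. Each of 18193 genes was represented by its brightest probe set (mean over 15 arrays), and 9010 genes had more than 1. No filter on dim genes was used. Groups came from the titles and genotype labels. One mean per group was fitted over the 15 arrays (lmFit and eBayes of limma 3.58.1, R 4.3.3), with Benjamini-Hochberg adjustment over all genes at 0.05. The SE is that of the fitted log2 difference of 3 arrays against 3, and adjusted p-values are limma's throughout. The variance behind both is pooled over all 5 groups and moderated by limma. It can therefore understate the spread of the 2 compared groups where 1 array stands apart, as for Wif1 (SD 2.22 in adjacent and 0.19 in APC mutant arrays). The fit was tested on simulated data with independent noise in each array. These held no shared animal, array order or 3-prime shift, so that test does not cover such features of the real arrays. Adjacent and APC mutant arrays share no animal, and the replicate numbers follow only the order of the records.

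The members and the 42 gene lists were chosen with earlier results of these data known, so list counts are descriptions. Genes were named by rule: Olfm4 and Apc, the 12 highest and 12 lowest folds among called genes whose arrays did not overlap, leading and well-known members of lists, and genes called alike in both Olfm4 comparisons with the largest smaller fold. Predicted symbols were skipped. Promoter sequences are RefSeq's on GRCm38.p6. Alternatives were other probe set summaries, a filter at the median mean of 8.39, cyclic loess, another prior, array weights, animal as a random block (within-animal correlation 0.35), arrays of an animal averaged, the 3-prime minus 5-prime measure as a covariate (mean over dap, lys, phe and thr), only the groups compared, and each array left out.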

Additional observations from a re-analysis of the deposited data

Results flagged for a closer look

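The control probe sets carry a signal outside the gene comparisons, above its level in APC mutant colon. Their 3-prime minus 5-prime difference was larger in adjacent than in APC mutant arrays by 1.94 log2 units for the added bacterial RNAs, by 3.31 for Gapdh and by 1.56 for Actb (n = 3 arrays each, exact 2-sided permutation p = 0.1 each time, which is the lower limit with 3 against 3). All 3 adjacent arrays lay above all 3 APC mutant arrays in each measure. The array numbers are confounded with the groups, so array order and group cannot be told apart.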

How the results depend on the processing

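Adjacent against APC mutant colon gave 1798 genes higher and 1356 lower, and the counts moved past 1.5 times with array weights (3096 higher), animal as a random block (1194 higher), the most variable probe set (2755 lower), the arrays of an animal averaged (818 and 833) and the bacterial RNA covariate (0 and 0). With single arrays left out they ran from 823 to 1461 higher and from 746 to 1365 lower, fewest higher without adjacent replicate 3 and fewest lower without APC mutant replicate 1. Olfm4 mutant against wild type colon, with 986 higher and 454 lower, gave 484 higher with the mean of all probe sets and 1157 lower with the most variable one. Array weights gave 2053 and 726, averaged animals 604 and 220, the covariate 18 and 2, and only the groups compared 28 and 5. Single arrays left out gave 200 to 1700 higher and 63 to 536 lower. Shared higher genes (478) were 260 with the mean of all probe sets, 318 with cyclic loess, 962 with array weights, 177 with averaged animals, 0 with the covariate and 12 with only the groups compared. Shared lower genes (322) were 961 with the most variable probe set, 142 with averaged animals, 0 with the covariate and 3 with only the groups compared. Single arrays left out gave 120 to 521 and 43 to 334 shared genes, fewest without Olfm4 mutant replicate 2. The interaction, with 0 calls, gave 1 with the mean of all probe sets, genes above the median mean or cyclic loess, 6 with the most variable probe set, 22 with array weights, and 0 to 93 with single arrays left out (93 without wild type replicate 1, 52 without Olfm4 mutant replicate 2). The bacterial RNA difference of 1.94 ran from 1.77 to 2.03. Signs turned with the covariate for Rabac1 (0.15), C1qa (0.46), Tnfrsf11b (-0.79), Id1 (0.22), Pcdh17 (0.10), Ap2s1 (0.02), Nrarp (0.13), Insl5 (0.01), Rela (0.11), Relb (0.38), Lyz2 (0.20), Rps27 (0.34), Rps19 (0.05), Slpi (0.53), Ctsd (0.13), Pecam1 (0.43), Cdc20 (-0.49) and Ccl25 (0.65). With the most variable probe set they turned for Nfkb2 (-0.39), C1qb (-0.25), Apc (-1.94), Hk1 (-2.03), Pfkp (-2.19) and Ube2d-ps (-0.22), and with the mean of all probe sets for Apc (-0.46), Hk1 (-0.76), Pfkp (-0.52) and Lgr5 (0.01), which also gave 0.18 with array weights. Without single arrays Lgr5 ran from -0.31 to 0.16 and Olfm4 from -0.10 to 0.00. The cause of these changes was not tested. Estimates with the covariate are imprecise and lean on the spread among Olfm4 mutant arrays, so a turned sign is not a corrected direction. Of 118 named genes 109 were called, 55 of them in each of the 6 fits without 1 of the compared arrays. Of the 109, 39 lost their call with averaged animals, 4 with cyclic loess and none with another prior. With only the groups compared 26 lost their call and 1 other gene gained one. The median of all genes was 0.145, or 0.09 with cyclic loess. No paired analysis was possible because adjacent and APC mutant arrays come from different animals and their replicate numbers follow only the order of the records. The alternatives with the covariate were known from earlier results of these data.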
